A study of Homo sapiens with 8 samples.

Results

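The liver-enriched transcription factors are DNA-binding proteins of a few families that act together on the enhancers and promoters of hepatocyte genes. FOXA proteins carry a winged-helix domain and can open compacted chromatin, HNF4 proteins are nuclear receptors that bind DNA as dimers of their own family, CEBP proteins are basic leucine zipper factors of metabolic and acute-phase genes, and ONECUT proteins carry a cut domain beside a homeodomain. They bind near each other and act on each other's genes, and their joint presence marks the hepatocyte state. Here the genes HNF4A, HNF4G, FOXA1, FOXA2, FOXA3, CEBPA, CEBPB and ONECUT1 were followed in HepG2 cells, a line grown from a human hepatocellular carcinoma. The 8 genes were taken by name, in a choice made with earlier results of these data known. All 8 were found among the 38032 gene identifiers of the count files and were high enough to be tested among 13943 genes.

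HepG2 cells from a common commercial stock, with no engineered change of genotype, were kept for 8 days either on flat culture plastic (2D-primed, n = 4) or in Alvetex inserts, porous polystyrene scaffolds (3D-primed, n = 4). The study seeded the scaffolds at high density and gave a lower cell number for flat wells of matching plate size. Seeding and substrate therefore cannot be told apart here. Cells of both groups were then released with trypsin, and polyadenylated RNA was sequenced. The labels name 4 replicates in each group without saying whether they came from separate cultures, so the p-values measure the spread between these libraries. The 2D-primed libraries held 21599630, 23659259, 25019499 and 23947737 estimated counts, and the 3D-primed libraries 26682128, 22153063, 27844077 and 24616133. HepG2 is a single tumour-derived line, and neither group contained primary hepatocytes.

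The labelled cell type was checked against its markers. All 10 hepatocyte markers examined were expressed, and their summed level lay between 58040 and 64020 CPM (counts scaled to a fixed library total) in the 2D-primed libraries and between 95410 and 105000 CPM after 3D priming, 44.2% of it ALB (albumin). Of these, 9 rose, where 32.4% of all 13943 genes tested did, and AHSG did not pass the test (adjusted p = 0.077, edgeR). The cholangiocyte markers KRT7 and CFTR had at most 3 counts in every library, as had the fibroblast markers COL1A2, COL3A1, DCN and LUM, the endothelial markers KDR, CLEC4G and STAB2 and the leukocyte markers PTPRC and CD3E. The 4 cholangiocyte markers that could be tested were all called lower in 3D-primed cells, as were 31.6% of all genes, though SPP1 overlapped between the groups and reached an adjusted p of 0.057 (edgeR) with a library left out. The sum of the 6 fell from between 1009 and 1087 CPM to between 553 and 709 CPM, with SOX9 the most abundant at 29.4% of it. The stellate and fibroblast sum was 42.0 to 45.7 CPM after 2D priming against 40.6 to 49.8 CPM after 3D priming, mostly ACTA2 (68.4%). Within it PDGFRB rose from 10.7 to 16.4 CPM (edgeR adjusted p = 1.8e-05), and COL1A1, with 23, 28, 23 and 16 counts against 3, 2, 0 and 2, fell (edgeR adjusted p = 9.6e-05). The endothelial sum was 5.45 to 7.64 against 4.20 to 5.71 CPM, 53.7% of it CDH5, which fell (log2 fold change -1.56, edgeR adjusted p = 2.7e-05), while VWF was higher (0.62, edgeR adjusted p = 0.03, DESeq2 0.056). The leukocyte sum was 2178 to 2262 against 2426 to 3007 CPM, 97.8% of it LYZ. LYZ rose (log2 fold change 0.28, edgeR adjusted p = 0.0024), as did CD14 (0.78, edgeR adjusted p = 0.0017), while CD68 on the same list fell from 72.7 to 34.4 CPM (edgeR adjusted p = 6.3e-07). The mitochondrial share of counts also differed, with 1.40% to 1.81% after 2D priming and 2.47% to 2.98% after 3D priming. The part of these shifts in the results that follow was not tested. In bulk RNA, fewer cells that express a gene and less of its RNA per cell cannot be told apart.

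Of the 8 factor genes, 6 were higher in 3D-primed cells (HNF4A, HNF4G, FOXA1, FOXA3, CEBPA and CEBPB), FOXA2 was lower, and ONECUT1 did not pass the test. That is 7 of 8 called at an adjusted p below 0.05 by edgeR's quasi-likelihood test, where 63.9% of all 13943 genes tested were called. In one direction, 6 of 8 were called higher against 32.4% of all genes, and 1 of 8 was called lower against 31.6%. Since the 8 genes were chosen with earlier results of these data known, these counts describe them and are not independent evidence. CEBPA and CEBPB also changed at least 2-fold, which 11.9% of all genes did in either direction and 4.86% did upwards, and the other called factor genes did not. The libraries of the 2 groups did not overlap in CPM for the 7 called genes, which was also so for 59.8% of all genes. The median log2 fold change was 0.29 over the 8 genes and 0.01 over all genes tested, and the median absolute log2 fold change 0.37 against 0.34. Below, CPM are scaled by TMM (trimmed mean of M values), log2 fold changes are 3D-primed over 2D-primed, and the standard error (SE) is the log2 fold change divided by the square root of its F statistic.

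**Figure D1:**
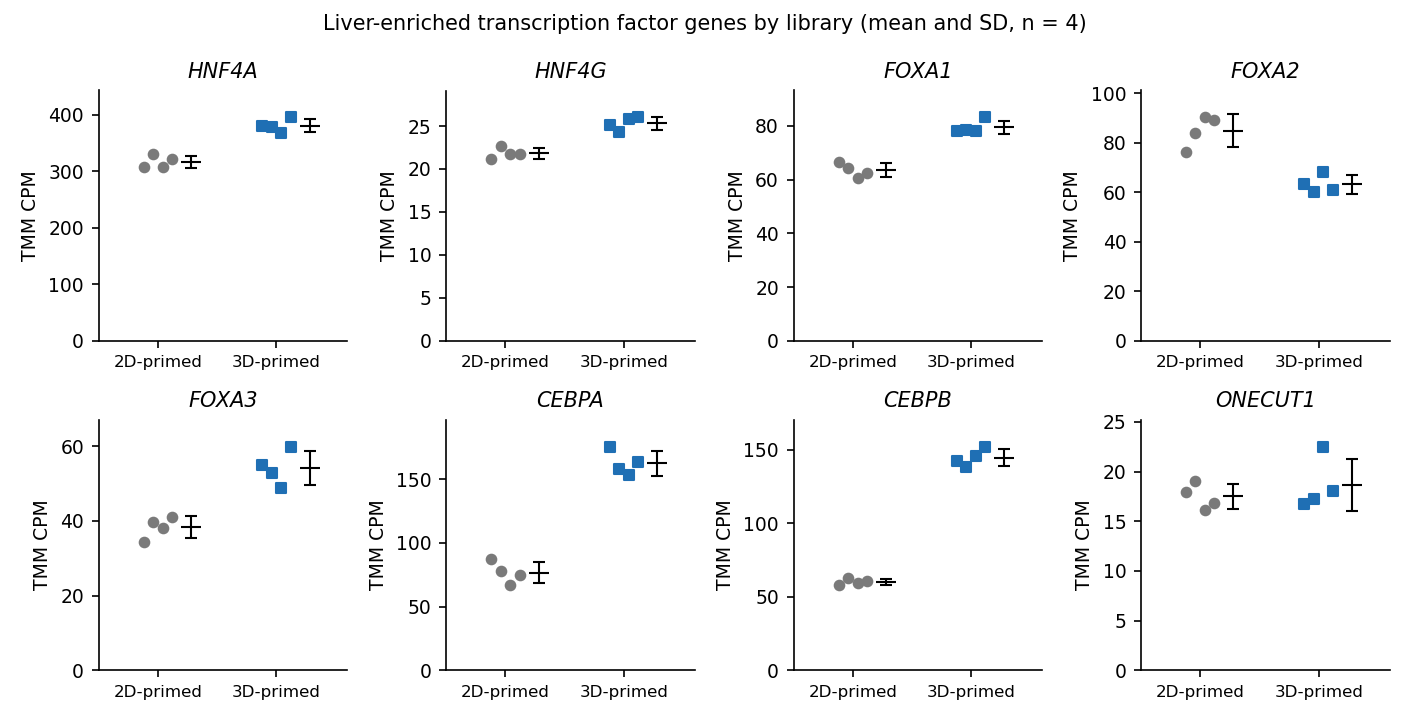
TMM-scaled CPM (y axis, from 0) of the 8 factor genes in each library; grey circles are the 4 2D-primed and blue squares the 4 3D-primed libraries, with the mean and SD beside them. The groups separate in 7 panels, by the largest fold for CEBPB (60.1 against 144.8 CPM). FOXA2 is the panel in which 3D-primed libraries lie lower, and ONECUT1 overlaps.

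Since CEBPA and CEBPB changed most, and FOXA3 most among the FOXA genes that rose, the 100 bases before their transcription starts are shown. They come from RefSeq (GRCh38.p14) and are written 5′ to 3′ on the gene's own strand. The capitals mark the TATA box letters TATAAA and, in CEBPB, the letters TGACG of a cAMP response half-site. The windows are chr19:33302535-33302634 on the minus strand for CEBPA, chr20:50190730-50190829 on the plus strand for CEBPB, and chr19:45864226-45864325 on the plus strand for FOXA3.
CEBPA: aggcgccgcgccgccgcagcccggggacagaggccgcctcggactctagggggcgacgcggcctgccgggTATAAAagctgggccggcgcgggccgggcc
CEBPB: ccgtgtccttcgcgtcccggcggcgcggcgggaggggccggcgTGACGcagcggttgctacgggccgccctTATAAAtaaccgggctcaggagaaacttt
FOXA3: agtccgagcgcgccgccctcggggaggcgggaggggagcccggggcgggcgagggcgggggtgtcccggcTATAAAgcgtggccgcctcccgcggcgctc

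The letters TATAAA, searched on the gene's strand in the 150 bases before the start, began 30 bases before the start in CEBPA and FOXA3 and 29 bases before it in CEBPB. They were found in 4.54% of 35116 RefSeq promoters. They were not in the same window of HNF4A, FOXA1 or ONECUT1, the other 3 of the 6 factor genes with an entry. HNF4A and CEBPB have 2 entries each, of which only the window at the start of the canonical transcript was read, for HNF4A the upstream start at 44355699. TGACG, searched on both strands, began 57 bases before the CEBPB start and occurred in 15.4% of promoters. The ONECUT letters ATTGAT, on the opposite strand, were in the HNF4A window and in 3.04% of promoters. The FOX letters TGTTTAC and their variants TATTTAC and, likewise searched, TGTTTGC (together in 4.71% of promoters), the HNF4 letters CAAAGTCCA (0.222%), the CEBP letters TTGCNNAA (5.02%) and CCAAT (23.5%) were in none of these 6 windows. The windows of CEBPA, CEBPB, FOXA3 and ONECUT1 were 79.3%, 74.0%, 80.7% and 78.7% G and C, that of FOXA1 64.7% and that of HNF4A 56.0%, where the median promoter had 60.0%.

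HNF4A, on chromosome 20 (GRCh38, 44355699 to 44432845, plus strand), encodes a nuclear receptor that binds the regulatory regions of a large share of the genes active in hepatocytes. It stood at 307, 330, 308 and 321 CPM in the 2D-primed libraries and at 380, 377, 368 and 395 CPM in the 3D-primed libraries. No value of 1 group fell into the range of the other, and the means were 316.4 ± 11.1 and 380.2 ± 11.3 CPM (SD, n = 4). The log2 fold change was 0.27 (SE 0.0397, edgeR adjusted p = 1.9e-04). In size it exceeded 40.4% of all genes tested, a place below the middle. HNF4A is transcribed from an upstream and an intronic promoter, and counts per gene do not separate their products.

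HNF4G, the paralogue of HNF4A that is best known from the gut and kidney, lies on chromosome 8 (75407914 to 75566834, plus strand). Its libraries read 21.2, 22.7, 21.8 and 21.7 CPM in the 2D-primed libraries and 25.1, 24.3, 25.8 and 26.0 CPM in the 3D-primed libraries. The groups did not overlap, and the rise was the smallest among the called factor genes, with a log2 fold change of 0.21 (SE 0.0448, edgeR adjusted p = 0.0019). Within a library HNF4A had 14.5 times the counts of HNF4G after 2D priming and 15.0 times after 3D priming. The log2 ratio of both genes went from 3.86 ± 0.0268 to 3.91 ± 0.0517 (SD, n = 4), a difference of 0.05 that did not pass the exact two-sided permutation test (p = 0.11, adjusted over 5 ratios 0.14). Per kilobase, HNF4A made up 92.9% of the HNF4 family level after 2D priming and 93.1% after 3D priming.

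The 3 FOXA genes did not move together. FOXA1 and FOXA3 rose and FOXA2 fell, so that the summed level of the family per kilobase went from 71.6 ± 3.23 to 75.7 ± 2.35 CPM (SD, n = 4) while its composition shifted. FOXA1 and FOXA2 act redundantly when gut endoderm takes on liver fate, and FOXA3 appears later in liver development.

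FOXA1 (chromosome 14, 37589552 to 37596059, minus strand) read 66.7, 64.4, 60.6 and 62.6 CPM in the 2D-primed libraries. In the 3D-primed libraries it read 78.2, 78.6, 78.0 and 83.2 CPM, of which the last, replicate 4, stood apart from 3 nearly equal values. The ranges of the groups did not meet, and the log2 fold change was 0.32 (SE 0.0415, edgeR adjusted p = 6.5e-05). TTC6, which overlaps FOXA1 on the opposite strand, was at 4.98 and 5.71 CPM and did not pass the test (log2 fold change 0.20, edgeR adjusted p = 0.13).

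FOXA2 (chromosome 20, 22580998 to 22585455, minus strand) was the only 1 of the 8 factor genes that fell. Its values were 76.1, 84.1, 90.3 and 89.4 CPM in the 2D-primed and 63.3, 60.0, 68.3 and 61.2 CPM in the 3D-primed libraries. The lowest 2D-primed library, replicate 1, still lay above the highest 3D-primed library, replicate 3. The mean went from 85.0 ± 6.52 to 63.2 ± 3.69 CPM (SD, n = 4), a log2 fold change of -0.43 (SE 0.0621, edgeR adjusted p = 1.5e-04).

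FOXA3 (chromosome 19, 45863989 to 45873797, plus strand) rose most in the family. It read 34.5, 39.8, 38.1 and 41.1 CPM in the 2D-primed libraries and 55.0, 52.9, 48.8 and 59.9 CPM in the 3D-primed libraries. The groups did not overlap, and the log2 fold change of 0.50, or 1.41-fold (SE 0.0711, edgeR adjusted p = 1.4e-04), exceeded in size that of 64.7% of all genes tested.

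Ratios of these genes within a library do not depend on how libraries are scaled. FOXA2 had 1.34 times the counts of FOXA1 in 2D-primed cells and 0.794 times in 3D-primed cells. The log2 ratio of FOXA1 to FOXA2 was -0.19, -0.39, -0.58 and -0.51 in the 2D-primed libraries. In the 3D-primed libraries it was 0.30, 0.39, 0.19 and 0.44. Its sign depends on the lengths of the 2 transcripts (3509 bases for FOXA1, 2538 for FOXA2). Per kilobase, FOXA2 stayed above FOXA1 in every 3D-primed library. The shift of this ratio between the groups does not depend on the lengths. The difference of 0.75 reached p = 0.029 in the exact two-sided permutation test, the smallest that 4 against 4 libraries allow, and 0.071 after adjustment over the 5 ratios. The log2 ratio of FOXA2 to FOXA3 fell from 1.15 ± 0.0704 to 0.23 ± 0.191 (SD, n = 4), again without overlap (difference -0.92, exact permutation p = 0.029, adjusted 0.071). FOXA1 to FOXA3 went from 0.73 to 0.56 with overlapping groups (difference -0.17, or -0.10 without 2D-primed replicate 1; exact permutation p = 0.086, adjusted 0.14). Neither adjusted value passes 0.05, and with 2 of 5 ratios at the smallest possible p and the others above it none could. Without 3D-primed replicate 3, these 2 ratios were 0.80 and -1.01 and the ratio of HNF4A to HNF4G was 0.0777, each with an adjusted p of 0.048 in the exact permutation test. Each stood at the smallest p possible there (0.029), so the lower adjusted value came from 1 more ratio reaching it. Per kilobase, FOXA2 made up 46.8% ± 1.80 of the family level after 2D priming and 32.9% ± 2.36 after 3D priming, FOXA3 27.9% ± 0.981 and 37.2% ± 2.28, and FOXA1 25.4% ± 2.14 and 29.9% ± 0.448 (SD, n = 4). FOXA2 thus had the largest share in every 2D-primed library, where its lowest was 44.8%.

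**Figure D2:**
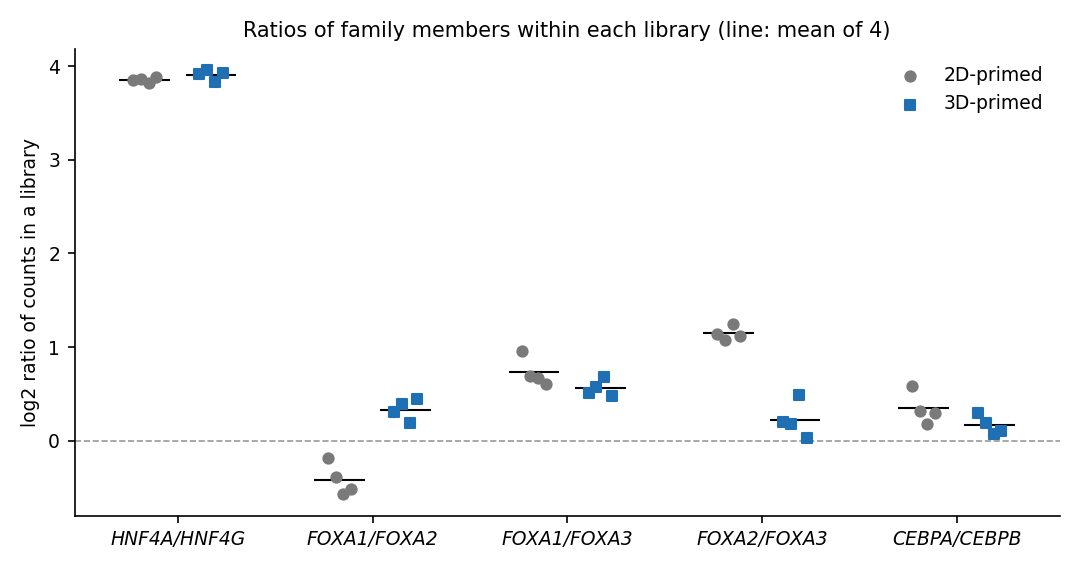
Log2 ratio of the counts of 2 genes of a family within a library (y axis), for 5 ratios on the x axis; grey circles are 2D-primed and blue squares 3D-primed libraries, with a line at the mean of 4. FOXA1/FOXA2 crosses 0 between the groups (means -0.42 and 0.33) and FOXA2/FOXA3 falls from 1.15 to 0.23, while the other 3 ratios overlap. Unlike the shift between the groups, the place of 0 depends on transcript length.

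The CEBP genes held the 2 factor genes that changed most. CEBPA, on chromosome 19 (33299934 to 33302534, minus strand), encodes C/EBPα, which acts on metabolic genes of the liver and restrains hepatocyte proliferation. Its libraries read 86.9, 78.1, 66.8 and 74.6 CPM in the 2D-primed libraries and 176, 158, 153 and 163 CPM in the 3D-primed libraries. The groups were far apart and replicate 1 was the highest in both. The rise was 2.12-fold, a log2 fold change of 1.09 (SE 0.0754, edgeR adjusted p = 8.9e-07), larger in size than 88.6% of all genes tested.

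CEBPB, on chromosome 20 (50190830 to 50192668, plus strand), encodes C/EBPβ, known for its response to inflammatory and hormonal signals and for its rise in regenerating liver. It stood at 57.9, 62.7, 59.1 and 60.7 CPM in the 2D-primed libraries and at 143, 138, 146 and 152 CPM in the 3D-primed libraries. The libraries of a group lay close together, with coefficients of variation of 3.45% and 4.08%, and the groups far apart. The rise was 2.41-fold, a log2 fold change of 1.27 (SE 0.0431, edgeR adjusted p = 2.0e-08), larger in size than 91.5% of all genes tested. The protein forms that arise from different start codons of its single mRNA cannot be told from counts. The log2 ratio of CEBPA to CEBPB went from 0.34 to 0.16 with overlapping groups (difference -0.18, or -0.099 without 2D-primed replicate 1; exact permutation p = 0.14, adjusted 0.14).

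The other CEBP genes went in both directions. CEBPG, whose short product forms dimers with other CEBP proteins, read 54.2, 48.9, 54.9 and 50.2 CPM in the 2D-primed libraries and 90.2, 82.7, 91.4 and 83.4 CPM in the 3D-primed libraries. It rose without overlap by a log2 fold change of 0.74 (SE 0.0525, edgeR adjusted p = 1.0e-06), and it is also the nearest tested gene on the side of CEBPA's start, 71.2 kb away. CEBPD, an acute-phase and stress-responsive member, read 39.0, 51.7, 57.3 and 52.5 CPM in the 2D-primed libraries and 23.0, 19.7, 22.9 and 18.8 CPM in the 3D-primed libraries. It was lower in all 3D-primed libraries, 2.38-fold in the mean (log2 fold change -1.25, SE 0.115, edgeR adjusted p = 5.8e-06). DDIT3 (CHOP), a CEBP partner induced by endoplasmic reticulum stress, fell from 19.1 ± 0.605 to 15.2 ± 1.38 CPM (SD, n = 4; log2 fold change -0.33, edgeR adjusted p = 0.0018). CEBPE, a factor of granulocytes, had at most 3 counts in any library and was not tested.

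The 4 most abundant CEBP genes together went from 116.1 ± 3.76 to 181.4 ± 5.80 CPM per kilobase (SD, n = 4). In 2D-primed cells CEBPD made up 34.4% of this level, CEBPB 28.2%, CEBPA 25.5% and CEBPG 12.0%. In 3D-primed cells CEBPB made up 43.4%, CEBPA 34.4%, CEBPG 12.9% and CEBPD 9.28%. The share of CEBPD lay between 28.2% and 38.7% in the 2D-primed and between 8.20% and 10.1% in the 3D-primed libraries, and that of CEBPB between 27.2% and 28.8% and between 41.4% and 45.3%. These shares are of RNA per kilobase of transcript and were described, not tested.

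**Figure D3:**
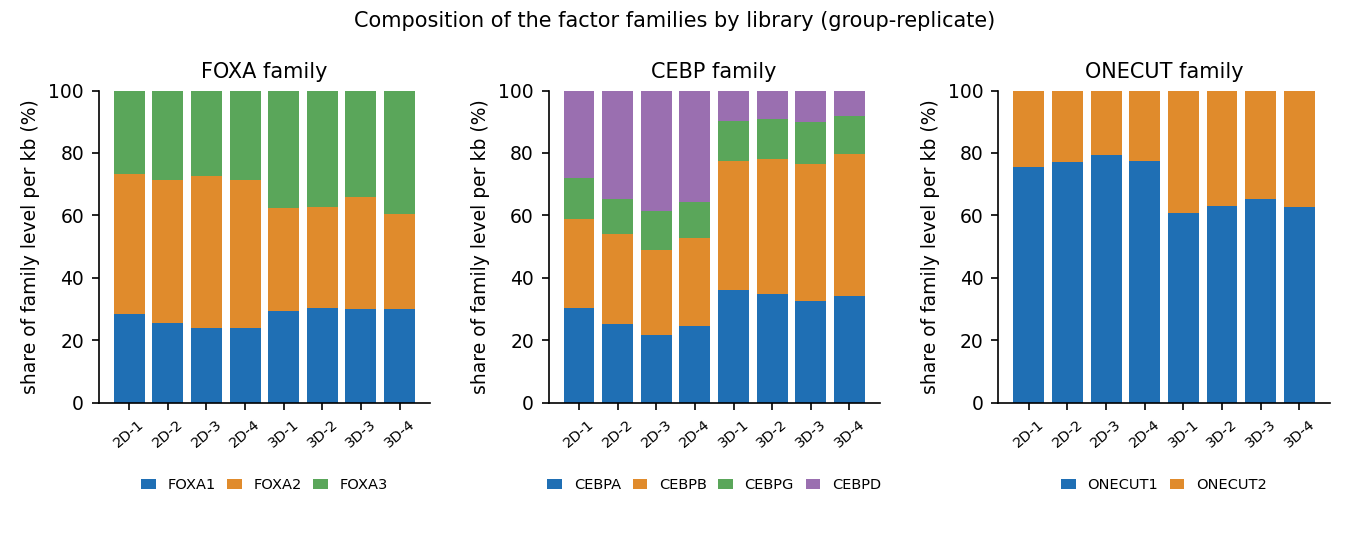
Share of the summed level per kilobase of transcript (y axis, percent) of each gene in the FOXA, CEBP and ONECUT families, as stacked bars for the 8 libraries (group and replicate number on the x axis). FOXA2 falls from a mean of 46.8% to 32.9%, CEBPD from 34.4% to 9.28% and ONECUT1 from 77.3% to 62.9%.

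ONECUT1 (HNF6), on chromosome 15 (52755053 to 52791078, minus strand), acts in the development of hepatocytes and bile ducts. It read 17.9, 19.0, 16.1 and 16.9 CPM in the 2D-primed libraries and 16.8, 17.2, 22.5 and 18.0 CPM in the 3D-primed libraries. The groups overlapped, and 3D-primed replicate 3 lay above all other libraries. The log2 fold change of 0.09 (95% interval -0.12 to 0.31, edgeR adjusted p = 0.42) did not pass the test, and without 3D-primed replicate 3 it was -0.02 (adjusted p = 0.82).

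Its paralogue ONECUT2 read 22.0, 21.3, 15.9 and 18.7 CPM in the 2D-primed libraries and 40.7, 38.3, 45.0 and 40.8 CPM in the 3D-primed libraries. It was higher in every 3D-primed library, 2.12-fold in the mean (log2 fold change 1.08, SE 0.0944, edgeR adjusted p = 4.0e-06). ONECUT1 made up 77.3% ± 1.58 of the ONECUT level per kilobase after 2D priming and 62.9% ± 1.89 after 3D priming (SD, n = 4). ONECUT3 had at most 5 counts in any library and was not tested. Among the other family members as a whole, all 4 tested genes were called, 2 higher and 2 lower, where 63.9% of all genes tested were called.

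**Figure D4:**
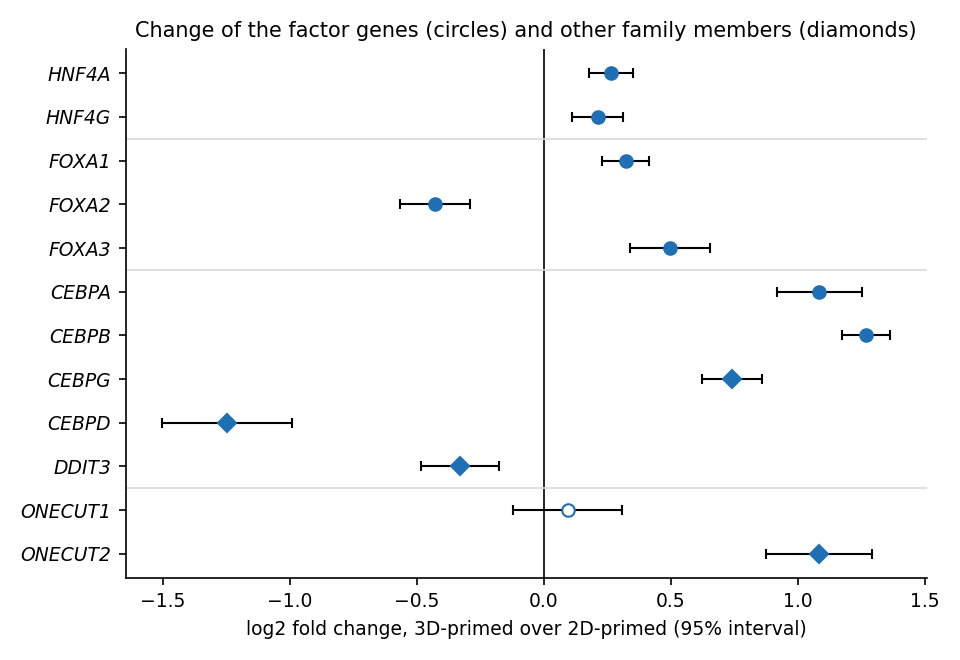
Log2 fold change (x axis, 3D-primed over 2D-primed) with its 95% interval for the 8 factor genes (circles) and 4 further family members (diamonds), grouped by family; filled symbols passed an adjusted p of 0.05. CEBPB (1.27), CEBPA (1.09) and ONECUT2 (1.08) lie farthest right, CEBPD (-1.25) farthest left, and the interval of ONECUT1 spans 0.

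To compare the factor genes with each other, CPM were divided by the length of the canonical transcript in kilobases. In 2D-primed cells HNF4A was highest with 68.1 ± 2.39 CPM per kilobase (SD, n = 4). FOXA2 (33.5), CEBPB (32.7) and CEBPA (29.5) followed, and each overlapped its neighbour in this order across the libraries. Below a gap came FOXA3 (19.9) and FOXA1 (18.1), which overlapped, then HNF4G (5.20) and ONECUT1 (4.02), each apart from its neighbour. In 3D-primed cells HNF4A (81.9) and CEBPB (78.8) overlapped at the top, with CEBPA (62.5) below both. FOXA3 (28.2), FOXA2 (24.9) and FOXA1 (22.7) followed, FOXA2 overlapping each of the others, and HNF4G (6.03) and ONECUT1 (4.28) were again the lowest. The place of HNF4A depended on the length used: with the union of its exons, 10167 bases in place of 4645, HNF4A stood at 31.1 and 37.4 CPM per kilobase and came behind CEBPB and FOXA2 in the 2D group and behind CEBPB and CEBPA in the 3D group. In 2D-primed cells CEBPB (32.7), FOXA2 (31.3) and HNF4A (31.1) were then near each other.

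The remaining factors that hepatocytes use were taken from lists chosen with earlier results of these data known. Of 21 nuclear receptors of hepatocytes, 20 were tested, of which 6 were higher, 10 lower and 4 not called, where 32.4% of all genes tested were higher and 31.6% lower. Their median log2 fold change was -0.21, against 0.01 over all genes. NR1H4 (FXR), the bile acid receptor, read 11.7, 11.5, 9.44 and 13.6 CPM in the 2D-primed libraries and 50.6, 50.9, 48.6 and 57.5 CPM in the 3D-primed libraries. Its 4.49-fold rise (log2 fold change 2.17, SE 0.0962, edgeR adjusted p = 6.3e-08) was the largest of the list. NR0B2 (SHP), a repressor induced by FXR that also binds HNF4A, rose from 71.3 ± 7.86 to 174 ± 20.6 CPM (SD, n = 4; log2 fold change 1.28, edgeR adjusted p = 1.4e-06).

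Of 24 other transcription factors of hepatocytes and foregut, 23 were tested, 8 were higher, 12 lower and 3 not called, against 32.4% higher and 31.6% lower over all genes, with a median log2 fold change of -0.17. The smallest p-values belonged to 3 genes that rose. SREBF1, which drives lipid synthesis genes, went from 48.5 ± 2.02 to 85.7 ± 4.21 CPM (SD, n = 4; log2 fold change 0.82, edgeR adjusted p = 2.7e-07). XBP1, a factor of the secretory pathway, went from 226 to 383 CPM (0.76, edgeR adjusted p = 4.5e-07), and ATF5 from 17.3 to 33.4 CPM (0.94, edgeR adjusted p = 5.2e-07).

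The 18 coactivators and corepressors with which these factors work leaned downwards, with 2 higher, 12 lower, 4 not called and a median log2 fold change of -0.30, where 32.4% and 31.6% of all genes were called higher and lower. CITED2, which binds CBP and p300 and acts as a coactivator of HNF4A in liver development, fell from 151 ± 6.92 to 62.9 ± 4.17 CPM (SD, n = 4; log2 fold change -1.26, edgeR adjusted p = 5.6e-08). SMARCA4 (BRG1), an ATPase of SWI/SNF chromatin remodelling, fell from 131 to 90.7 CPM (-0.53, edgeR adjusted p = 5.9e-07). The 2 that rose, NCOA3 (log2 fold change 0.25) and MED1 (0.21), were named after their values were seen.

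Genes known from textbook studies as targets of the factors were examined as 3 lists. Of 26 HNF4A targets, 22 were tested, with 15 higher, 2 lower, 5 not called and a median log2 fold change of 0.43. CYP7A1, the rate-limiting enzyme of bile acid synthesis, read 2.61, 2.42, 1.67 and 2.24 CPM in the 2D-primed libraries and 14.9, 15.9, 13.8 and 15.4 CPM in the 3D-primed libraries. This 6.71-fold rise (log2 fold change 2.75, edgeR adjusted p = 5.8e-08) was the largest of the list, though on a low level. F7, coagulation factor VII, rose from 14.2 to 39.4 CPM (1.48, edgeR adjusted p = 1.1e-07) and APOA2, an apolipoprotein of HDL, from 1400 to 2789 CPM (0.99, edgeR adjusted p = 1.5e-07). The 2 lower genes, APOA4 (-0.33) and NR1I2 (PXR, -0.33), were named after their values were seen, and only 1 was called with upper quartile scaling, with no filter, or without 2D-primed replicate 3 or 4 or 3D-primed replicate 1 or 4. Over all genes tested, 32.4% were higher and the median log2 fold change was 0.01.

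Of 16 FOXA targets, 14 were tested, with 10 higher, 2 lower and 2 not called, against 32.4% higher and 31.6% lower over all genes, and a median log2 fold change of 0.59. AFP, the fetal albumin-like protein that HepG2 cells secrete, rose from 8679 ± 376 to 18750 ± 553 CPM (SD, n = 4; log2 fold change 1.11, edgeR adjusted p = 2.0e-08). FGB, the fibrinogen beta chain, rose from 246 to 722 CPM (1.55, edgeR adjusted p = 2.2e-08), and TAT, tyrosine aminotransferase, from 6.97 to 22.4 CPM (1.68, edgeR adjusted p = 8.9e-07). PCK1 (-0.81) and ABCC2 (-0.36), the 2 lower genes, were named after their values were seen.

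Of 21 CEBP targets, 17 were tested, with 7 higher, 5 lower and 5 not called, shares near the 32.4% higher and 31.6% lower of all genes tested. Their median log2 fold change was 0.10, while CEBPA and CEBPB themselves were more than 2-fold higher and CEBPD more than 2-fold lower (log2 fold change -1.25). FGB and TAT, also on the FOXA list, were the 2 with the smallest p-values, followed by SAA4, a constitutive serum amyloid A, which rose from 12.3 ± 1.78 to 32.2 ± 2.70 CPM (SD, n = 4; log2 fold change 1.38, edgeR adjusted p = 1.3e-06). The 5 lower genes, named after their values were seen, were HAMP (hepcidin, -1.50), PCK1 (-0.81), SERPINA3 (-0.78), ITIH4 (-0.74) and C3 (-0.30).

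The target lists share genes. The HNF4A and FOXA lists have 7 in common (26.9% and 43.8% of each), the FOXA and CEBP lists 6 (37.5% and 28.6%), and the HNF4A and CEBP lists 1 (3.85% and 4.76%). The 50 distinct targets gave 42 tested genes, of which 25 were higher and 8 lower (32.4% and 31.6% over all genes), with a median log2 fold change of 0.21. Several of them, such as ALB, AFP, TTR and APOA1, are also the hepatocyte markers counted above.

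**Figure D5:**
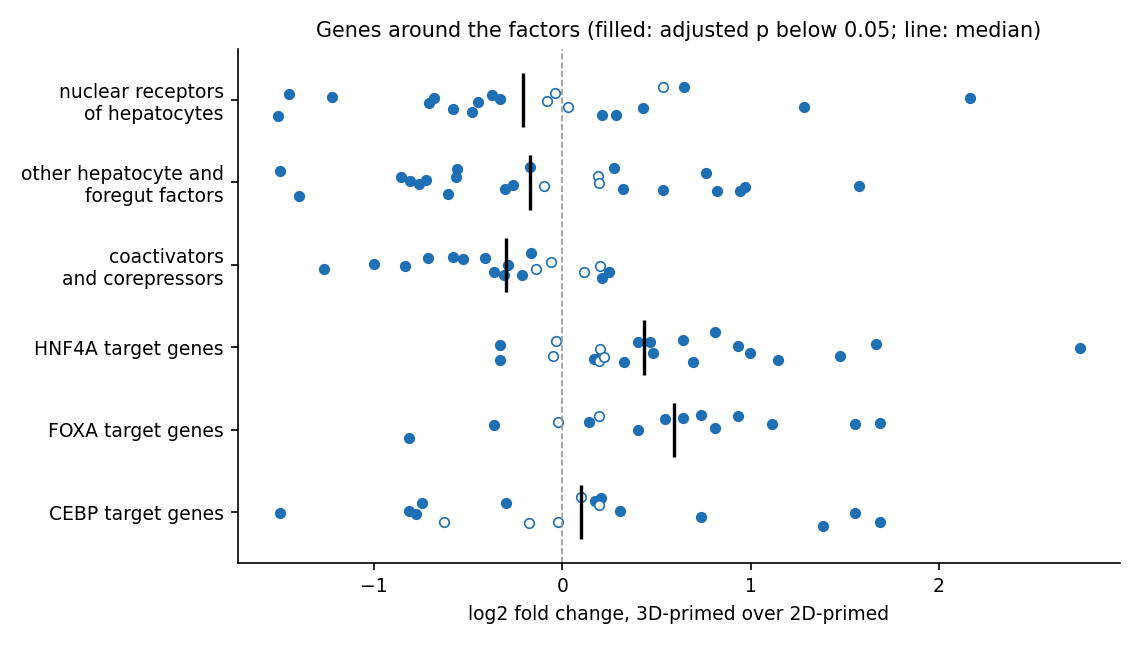
Log2 fold change (x axis, 3D-primed over 2D-primed) of the tested genes of 6 lists, 1 row per list; filled circles passed an adjusted p of 0.05, and the vertical bar is the median of the list. The medians lie at -0.21, -0.17 and -0.30 for the receptors, other factors and cofactors and at 0.43, 0.59 and 0.10 for the HNF4A, FOXA and CEBP targets.

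The nearest tested genes on either side of the factor genes lay from 0.795 to 1436 kb away. Of these 16, 10 were called, 8 higher and 2 lower, where 63.9% of all genes tested were called, 32.4% higher and 31.6% lower. FOXA3 and its neighbour SYMPK, a subunit of mRNA 3′ end processing 0.795 kb away, differed, since SYMPK did not pass the test (log2 fold change -0.01, edgeR adjusted p = 0.79). Around FOXA2, XRN2, 1191 kb away, did not pass (edgeR adjusted p = 0.95) and NXT1, 765 kb away, was higher (0.19, edgeR adjusted p = 0.026), a call that was lost with DESeq2 (adjusted p = 0.060) and without 2D-primed replicate 2 or 4 or 3D-primed replicate 1 or 2 (adjusted p up to 0.091). Around CEBPB, PEDS1, 37.1 kb away, was lower (-0.32, edgeR adjusted p = 4.2e-04) and PTPN1, 318 kb away, higher (0.15, edgeR adjusted p = 0.029, or 0.064 with the replicate number as a block), a call lost without any library other than replicate 1 of either group (adjusted p up to 0.088). On the other side of CEBPA from CEBPG, SLC7A10, 74.1 kb away, was higher at a low level of 1.77 and 3.34 CPM (0.91, edgeR adjusted p = 0.0079). Both genes around ONECUT1 rose while ONECUT1 did not pass, with log2 fold changes of 0.54 for ATOSA at 45.2 kb (edgeR adjusted p = 4.3e-05) and 1.01 for WDR72 at 723 kb (edgeR adjusted p = 5.3e-04). TTPAL, 43.0 kb from HNF4A (0.36, edgeR adjusted p = 8.1e-04) and GDAP1, 889.9 kb from HNF4G (1.37, edgeR adjusted p = 5.8e-06), were higher, and SEC23A, 1436 kb from FOXA1, was lower (-0.44, edgeR adjusted p = 1.3e-06). FITM2 (0.07, edgeR adjusted p = 0.29), PEX2 (-0.08, edgeR adjusted p = 0.43), MIPOL1 (0.08, edgeR adjusted p = 0.31) and IRF2BP1 (0.14, edgeR adjusted p = 0.067) did not pass. IRF2BP1 was called with upper quartile scaling (0.19, edgeR adjusted p = 0.013), with total counts (edgeR adjusted p = 0.026) and without 3D-primed replicate 2 (edgeR adjusted p = 0.041), and FITM2 without 2D-primed replicate 1 (0.11, edgeR adjusted p = 0.041).

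Across the 8 libraries, the gene whose centred log2 CPM lay nearest to that of each factor gene was sought among 8723 genes with a mean of at least 10 CPM, by root mean square distance. AP3B1 was nearest to FOXA1 (0.0099), NUP133 to HNF4A (0.0193) and GTF3C5 to HNF4G (0.0245). TMEM181 was nearest to FOXA2 (0.0381), ADGRL2 to FOXA3 (0.0487) and PCOLCE to CEBPB (0.0497). ABCG8, a sterol transporter of the canalicular membrane, was nearest to CEBPA (0.0592), and PANK3 to ONECUT1 (0.0759). No factor gene was the nearest of another.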

How the data were processed

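The deposited files hold estimated counts per gene, which the authors made from poly(A) RNA-seq of directional libraries with Salmon (per the labels) on GRCh38 transcripts and summed to genes with tximport; whether tximport corrected for transcript length was not given in the sources used here. Rounded counts were used. Of the identifiers, 29661 of 38032 (78.0%, holding 97.4% of counts) matched a GENCODE 44 symbol. Genes that reached 10 counts in 2 or more libraries were fitted by edgeR 4.0.16 (R 4.3.3; TMM, glmQLFit, glmQLFTest, group only), with Benjamini-Hochberg adjustment over all 13943 genes. The fit was tested on simulated data. The study's methods used DESeq2, here (1.42.0) an alternative beside limma-voom (3.58.1), other scalings and filters, a replicate block and leaving out each library. Ratios of family members were compared by exact permutation over 70 assignments. Libraries of a group differed by more than sampling noise (chi-square per degree of freedom of 6.34 to 17.4), so none was counted as a duplicate. Intervals cover the spread between libraries only.

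The factor genes and lists were chosen with earlier results of these data known. Named were the 8 genes, tested family members, the 3 smallest p-values of each list, nearest tested neighbours and nearest profiles; some genes that this rule names are not reported here. Promoters were read from RefSeq (GRCh38.p14), of which 6 of 8 genes matched.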

Additional observations from a re-analysis of the deposited data

Results flagged for a closer look

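For 52 named genes and the ratios, 114 groups of 4 libraries were examined for a library far from the others, a test that chance alone passes in about 1 of 20 groups, and 3 were found. FOXA1 in 3D-primed replicate 4 stood at 83.2 CPM, where the other 3D-primed libraries lay between 78.0 and 78.6 CPM. SEC23A in 3D-primed replicate 1 stood at 583 CPM, with the others between 567 and 570 CPM. TTC6 in 3D-primed replicate 3 stood at 6.70 CPM, with the others between 5.28 and 5.49 CPM.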

How the results depend on the processing

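The 7 called factor genes kept their direction and passed 0.05 under all 17 alternatives, whose counts of differentially expressed genes ran from 8357 (without 2D-primed replicate 3) to 9070 (upper quartile), with 8413 by DESeq2. ONECUT1 reversed to -0.0194 without 3D-primed replicate 3, and leaving out each library gave it log2 values from -0.0194 to 0.14. Without 3D-primed replicate 3, 3 ratios reached the smallest p that 3 against 4 libraries allow (0.029, adjusted 0.048, exact permutation test). They were HNF4A to HNF4G (0.0777, range 0.04 to 0.0777), FOXA1 to FOXA2 (0.80, range 0.70 to 0.82) and FOXA2 to FOXA3 (-1.01, range -1.01 to -0.86). The FOXA ratios were already at the smallest possible p with all libraries. With union exon lengths 5 of 8 genes kept their rank in 3D-primed cells. The uncalled XRN2 turned to 0.0476 (upper quartile), 0.0256 (total counts), 0.0028 (no filter) and, with a library left out, -0.0253 to 0.0024, and SYMPK to 0.0375 and 0.0153 under those scalings and to 0.0057 without 2D-primed replicate 2 (range -0.0373 to 0.0057). NXT1 and PTPN1 lost and IRF2BP1 and FITM2 gained calls in some alternatives. The causes were not tested. Over 52 named genes and 17 alternatives, 857 of their alternative values stayed on the same side of the threshold and in the same direction, 12 lost and 4 gained a call, and 11 changed sign.

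Same-numbered libraries did not deviate together (correlations of -0.043, -0.014, 0.057 and 0.006). This cannot show whether they were set up together, which the labels do not say. A replicate block gave 8490 differentially expressed genes and changed no call among the 8 factor genes; for HNF4A it gave 0.27 (edgeR adjusted p = 0.0011). Blocked ratios gave adjusted p from 0.16 to 0.25 (exact sign-flip test, smallest p 0.125). CEBPE and ONECUT3 had too few counts to be tested.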

Other observations

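The 4 CEBP targets too low to be tested had their highest counts in 2D-primed replicate 2. CRP, the C-reactive protein, had 0, 38, 1 and 0 counts in the 2D-primed and 9, 9, 3 and 6 in the 3D-primed libraries. SAA1 had 0, 17, 0 and 1 against 5, 1, 1 and 4 counts, and SAA2 0, 10, 0 and 0 against 1, 0, 6 and 0. GYS2, the liver glycogen synthase, had 2 counts there and 0 in every other library. These genes were chosen after their values were seen.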
